A study of Mus musculus with 32 samples.

Results

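The 10 transcripts described here are the circadian clock genes Per1, Per2, Per3, Cry1, Cry2, Arntl, Clock, Dbp, Tef and Nr1d2, taken by symbol from the 21886 gene rows of a table of raw read counts. All 10 were in the table, and all 10 passed the filter of at least 1 CPM (read counts scaled to library size) in at least 16 libraries, as did 11772 genes in all. Polyadenylated RNA was sequenced from mouse presomitic mesoderm (PSM), the tissue that is cut into somites, grown in a dish from epiblast stem cells (EpiSCs). The cells carried a luciferase reporter of Hes7, the transcriptional repressor at the core of the segmentation clock, and the study asked which transcripts follow that clock.

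Ex5 comprised 16 dishes frozen at 165 to 425 min and Ex4 comprised 16 dishes frozen at 155 to 405 min, with 1 dish and 1 library at each time in each course. All dishes of both courses were of the same line, an AES0204-based Hes7-reporter, and had the same handling. EpiSCs were kept on fibronectin in DMEM/HamF12 with KSR, Activin A, bFGF and IWR-1-endo, an inhibitor of WNT signalling, and were seeded overnight in medium with Y27632, Activin A and bFGF. PSM was then induced for 30 hours in CDMi medium with the activin receptor inhibitor SB431542, the BMP receptor inhibitor LDN193189, the GSK3 inhibitor CHIR99021 at 10 µM and bFGF, before a change to CDMi with the same agents and CHIR99021 at 1 µM. No untreated or arrested cells belong to the comparison, the line is 1 reporter line, and the event from which the minutes are counted is not given in the labels. A test between Ex5 and Ex4 therefore compares these 2 courses. In bulk RNA, fewer cells that express a gene and less RNA per cell cannot be told apart, and neither can a rhythm in all cells and one in some of them.

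The circadian clock is a transcriptional feedback loop that repeats about daily. The bHLH-PAS proteins CLOCK and ARNTL (also called BMAL1) bind E-box elements and activate the Per and Cry genes, whose PER and CRY proteins then inhibit CLOCK and ARNTL. The nuclear receptor NR1D2 (REV-ERB beta) represses Arntl in a stabilising loop, and the PAR bZIP factors DBP and TEF act on D-box elements as outputs of the loop. Per1 is also an immediate response gene of several signals, among them cAMP and glucocorticoids. The segmentation clock is a separate and far faster loop of the PSM, in which HES7 represses its own gene and Notch target genes oscillate. Both courses were far shorter than a day, so a daily rhythm was outside what they could measure.

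Promoter windows of 300 bases, from 250 bases before a RefSeq transcription start to 50 after it, were matched for 9 of the 10 genes, in 14 windows. They are shown for Per1 and Dbp, the genes of the 10 that passed the rhythm test, for Hes7, which defines that cycle, and for the paralog Per3. Capitals mark matches, on either strand, to the E-box CACGTG, its variant CACGTT, the D-box TTANGNAA, the cAMP response element core TGACGT, the RBPJ site TGGGAA, the Hes class C site CACGCG and the ROR site core AGGTCA. Coordinates are on GRCm38.p6, and each sequence is given on the strand of its gene. Per1 window 1 is chr11:69098699-69098998 on the plus strand, Per1 window 2 is chr11:69099902-69100201 on the plus strand, Hes7 window 1 is chr11:69120203-69120502 on the plus strand, Dbp window 1 is chr7:45704997-45705296 on the plus strand and Per3 window 1 is chr4:151044616-151044915 on the minus strand.
Per1 window 1: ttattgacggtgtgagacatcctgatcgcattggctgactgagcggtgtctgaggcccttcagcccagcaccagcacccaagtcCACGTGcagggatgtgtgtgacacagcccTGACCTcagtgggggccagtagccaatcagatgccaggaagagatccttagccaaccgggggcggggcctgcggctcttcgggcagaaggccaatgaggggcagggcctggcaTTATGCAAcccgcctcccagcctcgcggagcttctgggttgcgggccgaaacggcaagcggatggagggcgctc
Per1 window 2: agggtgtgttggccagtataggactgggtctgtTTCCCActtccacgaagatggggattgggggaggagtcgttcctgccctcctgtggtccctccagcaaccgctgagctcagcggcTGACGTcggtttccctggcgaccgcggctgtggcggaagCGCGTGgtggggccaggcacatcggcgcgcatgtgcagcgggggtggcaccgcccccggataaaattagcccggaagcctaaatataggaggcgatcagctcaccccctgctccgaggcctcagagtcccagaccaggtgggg
Hes7 window 1: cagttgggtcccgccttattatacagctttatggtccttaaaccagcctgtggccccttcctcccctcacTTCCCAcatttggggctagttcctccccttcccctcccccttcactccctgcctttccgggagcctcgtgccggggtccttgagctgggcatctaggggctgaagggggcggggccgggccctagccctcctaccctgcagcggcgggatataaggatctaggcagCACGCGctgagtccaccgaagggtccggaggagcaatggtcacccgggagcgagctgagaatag
Dbp window 1: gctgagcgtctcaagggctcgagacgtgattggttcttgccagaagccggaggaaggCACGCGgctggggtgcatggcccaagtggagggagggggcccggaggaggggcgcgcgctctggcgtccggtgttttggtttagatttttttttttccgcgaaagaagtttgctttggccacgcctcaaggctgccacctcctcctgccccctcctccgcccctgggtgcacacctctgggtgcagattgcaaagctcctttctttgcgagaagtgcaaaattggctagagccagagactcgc
Per3 window 1: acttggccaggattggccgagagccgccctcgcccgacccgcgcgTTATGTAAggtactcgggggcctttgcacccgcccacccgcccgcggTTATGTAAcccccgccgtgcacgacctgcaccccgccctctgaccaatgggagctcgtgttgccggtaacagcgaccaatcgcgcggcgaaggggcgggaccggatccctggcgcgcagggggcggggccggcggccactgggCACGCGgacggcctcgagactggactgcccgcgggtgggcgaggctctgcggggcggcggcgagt

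Base 251 of each window is the transcription start. Per1 window 1 held an E-box from base 85, a ROR site core from base 114 and a D-box from base 227. Per1 window 2 held an RBPJ site from base 34, a cAMP response element core from base 119 and a Hes class C site from base 158. The Hes7 window held an RBPJ site from base 71 and a Hes class C site from base 237, the Dbp window a Hes class C site from base 58, and the Per3 window D-boxes from bases 46 and 93 and a Hes class C site from base 236. Of the 14 windows, only Per1 window 2 held the cAMP response element core. The other motifs were also in windows of clock genes with no rhythm call. E-boxes were in the windows of Cry1 and Tef, Hes class C sites in those of Cry1, Cry2 and Clock, and RBPJ sites in those of Tef and Cry2, where the RBPJ site overlapped the E-box variant. The Cry1 window also held the variant, and Arntl, Clock and Nr1d2 windows held ROR site cores, that of Arntl with a D-box. Each of these motifs is short and common. Of all 32851 promoter windows of this length, 7.15% held the E-box, 4.68% its variant, 11.5% the D-box, 7.51% the cAMP response element core, 25.6% the RBPJ site, 9.27% the Hes class C site and 16.3% the ROR site core. A match is a description of the letters and no evidence of binding.

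Library totals were 16132024 to 28586704 read counts in Ex5 and 19257945 to 29528175 in Ex4, so the least abundant of the 10 genes, Per2, still had 70 to 163 reads in a library of Ex5 and 73 to 152 in one of Ex4. All 8 PSM markers listed for this check (Tbx6, Msgn1, Hes7, Dll1, Dll3, Rspo3, Cited1 and T) passed the filter, and their summed level was 3256 to 3944 CPM in Ex5 and 2573 to 3231 CPM in Ex4. Of 8 epiblast markers, Nanog, Fgf5 and Otx2 stayed under 1 CPM. The others had means over the 32 libraries of 183 CPM (Dnmt3b), 60.7 CPM (Cdh1), 47.9 CPM (Pou5f1), 20.5 CPM (Sox2) and 0.652 CPM (Utf1). The summed level of the epiblast list was 233 to 314 CPM in Ex5 and 287 to 406 CPM in Ex4. The summed levels of the neural, endoderm, lateral mesoderm, somite and blood lists each stayed under those of both of these lists, at most 17.1 CPM in Ex5 and 19.1 CPM in Ex4. The library of Ex4 at 405 min stood farthest from the fitted curves, with a median absolute residual of 0.0838 on the log2 scale, against 0.0346 to 0.0687 in the other libraries.

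The 10 genes were present at low to moderate level throughout both courses. To compare genes with each other, levels were taken per length, as CPM per kilobase of annotated exon sequence, and the mean ± SD over the 32 libraries is given in that unit. The repressor genes Cry1 and Per1 were the most abundant, at 15.6 ± 1.19 and 13.2 ± 3.63, and did not differ beyond their spread. The output gene Tef followed at 6.37 ± 0.391, then Cry2 at 5.53 ± 0.370 and the output gene Dbp at 3.16 ± 0.639. Nr1d2 had 2.46 ± 0.246 and Clock 2.27 ± 0.200, which did not differ beyond their spread. Per3 had 1.62 ± 0.143, and Arntl at 0.970 ± 0.183 and Per2 at 0.818 ± 0.169 closed the order without differing beyond theirs. Per1 thus stood above both of its paralogs on the per-length scale, with no overlap of library values between Per1 (7.53 to 20.5) and Per3 (1.22 to 1.94), and its SD was the largest of the 10. In CPM, the genes that are not taken up singly later stayed within narrow ranges. Clock ran from 28.0 to 35.3 CPM in Ex5 and from 27.7 to 39.8 CPM in Ex4, its highest at 405 min, and Tef from 43.4 to 55.4 CPM in Ex5 and from 47.9 to 55.3 CPM in Ex4. Per3 ran from 11.7 to 18.7 CPM in Ex5 and from 14.4 to 17.4 CPM in Ex4, and Nr1d2 from 11.6 to 16.6 CPM in Ex5 and from 11.4 to 15.5 CPM in Ex4. The courses overlapped for each of these 4.

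**Figure D1:**
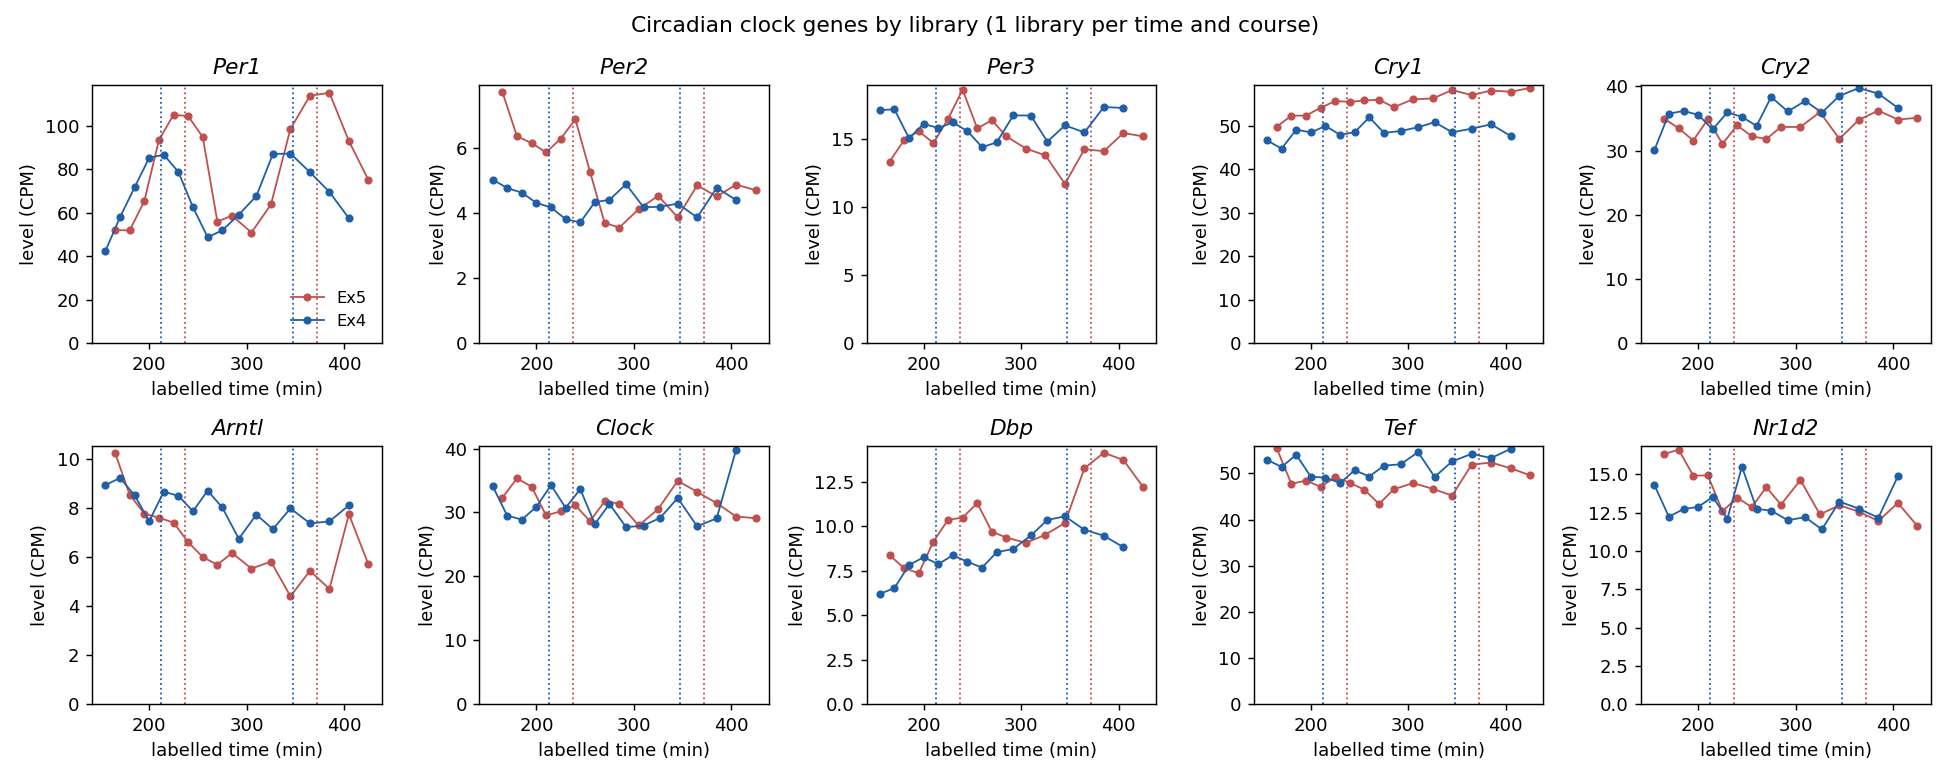
Level of each clock gene (CPM, y axis from 0) against labelled time (min), 1 point per library, red for Ex5 and blue for Ex4; dotted lines mark the fitted Hes7 peaks at 237 and 372 min in Ex5 and at 212 and 347 min in Ex4. Per1 runs through 2 peaks in each course, between 51.0 and 115 CPM in Ex5 and between 42.4 and 87.3 CPM in Ex4.

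Hes7 itself set the time axis for the rhythm. A single period of 135 min (95% interval 129 to 141 min) described its log2 CPM in both courses, with peaks at 237 and 372 min in Ex5 and at 212 and 347 min in Ex4, and peak-to-trough folds of 2.10 in Ex5 and 1.93 in Ex4. The courses spanned 1.93 of these cycles in Ex5 and 1.85 in Ex4. A gene was called rhythmic where cosine and sine terms of the Hes7 phase, shared by both courses and fitted beside a level and a linear slope for each, passed edgeR's quasi-likelihood test at an adjusted p of 0.05 over all genes. Of all genes tested, 1.32% were called (155 of 11772). Of the clock genes, 2 of 10 were called, Per1 and Dbp, and the median swing was 0.10 (log2) over the 10 genes and 0.07 over all genes.

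Per1, which encodes a repressor of CLOCK and ARNTL, followed the Hes7 cycle with a swing almost as large as that of Hes7. The gene lies on chromosome 11 from 69095217 to 69109960 on the plus strand (GENCODE M21 on GRCm38), where its end is 10443 bp upstream of the start of Hes7 on the same strand. In the libraries of Ex5 its level was 51.0 CPM at the lowest (305 min), 84.1 CPM at the median and 115 CPM at the highest (385 min). In Ex4 it was 42.4 CPM at the lowest (155 min), 68.7 CPM at the median and 87.3 CPM at the highest (345 min). High libraries of Ex5 lay at 210 to 255 min and 345 to 405 min and those of Ex4 at 200 to 230 min and 327 to 365 min, and the ranges of the courses overlapped. In the libraries nearest to the first Hes7 peak, the trough and the second peak, Per1 stood at 105, 51.0 and 114 CPM in Ex5 and at 86.7, 52.0 and 87.3 CPM in Ex4.

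Over both courses the fitted Per1 swing from peak to trough was 1.93-fold (log2 swing 0.95 ± 0.06 SE, adjusted p = 6.97e-15 by edgeR's quasi-likelihood test). The lag of its fitted peak behind that of Hes7 was -4.41 ± 1.36 min (SE), where a negative lag is an earlier peak. That SE takes the fitted Hes7 peak times as known, so it does not settle whether Per1 peaked before Hes7. With separate rhythm terms for each course, the swing was 2.06-fold in Ex5 and 1.79-fold in Ex4, and the lag was -4.32 min in Ex5 and -4.34 min in Ex4. A period fitted to Per1 itself, with no use of the Hes7 phase, was 139 min (95% interval 134 to 145 min) over both courses, 144 min (136 to 153 min) in Ex5 and 133 min (126 to 140 min) in Ex4. These intervals hold the 135 min of Hes7 over both courses and in Ex4, and in Ex5 the interval began just above it.

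Dbp, an activator at D-boxes and a classic output of the circadian loop, was the other gene called. It lies on chromosome 7 from 45705088 to 45710203 on the plus strand. Its level in Ex5 was 7.36 CPM at the lowest, 9.94 CPM at the median and 14.1 CPM at the highest (385 min), and in Ex4 it was 6.20, 8.46 and 10.6 CPM, the highest at 345 min. The highest Dbp library of each course was thus also the highest Per1 library of that course. The fitted Dbp swing was 1.24-fold (log2 0.31 ± 0.06 SE, adjusted p = 0.00208 by edgeR's quasi-likelihood test), with a lag of 2.72 ± 4.19 min behind Hes7, and was 1.34-fold in Ex5 and 1.21-fold in Ex4 with separate terms. With separate terms the Dbp lag was 10.2 min in Ex5 and -10.1 min in Ex4. The shared lag thus lay between a later peak in Ex5 and an earlier one in Ex4. The call was kept in Ex5 alone (adjusted p = 0.0276) and lost under 3 settings. In Ex4 alone its adjusted p was 0.262, with no slope in the fit it was 0.124, and with a period held at 180 min it was 0.523. The period fitted to Dbp itself was 132 min (123 to 141 min).

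**Figure D2:**
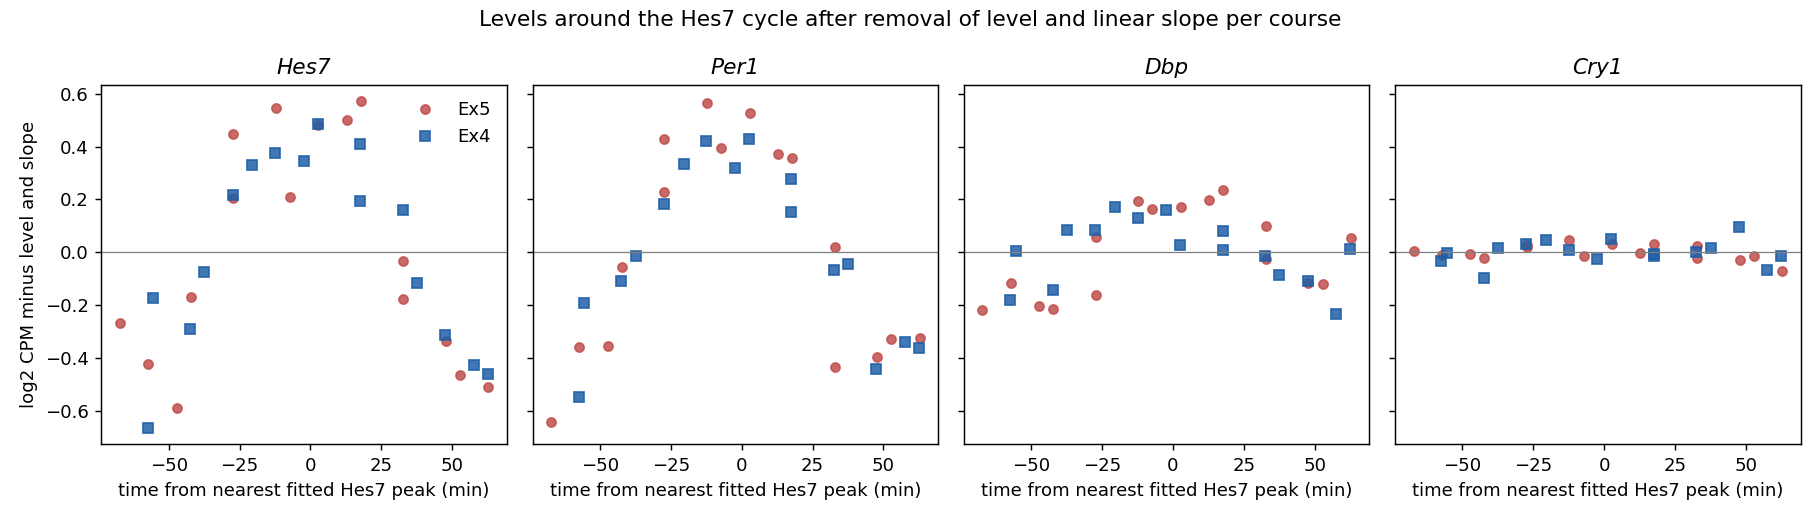
Log2 CPM after removal of level and linear slope per course (y axis) against time from the nearest fitted Hes7 peak (min, x axis) for Hes7, Per1, Dbp and Cry1; red circles are Ex5 and blue squares Ex4, 1 point per library. Per1 rises and falls with Hes7 (fitted swing 1.93-fold), Dbp does so less steeply (1.24-fold), and Cry1 stays near 0.

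The other 8 clock genes did not pass the rhythm test, with adjusted p of 0.438 to 0.975 by edgeR's quasi-likelihood test. Their data set limits on a swing in phase with Hes7, given here as the log2 difference between the Hes7 peak and the Hes7 trough with its 95% interval. Among the repressor genes, Per2 had -0.03 (-0.23 to 0.17), Per3 0.04 (-0.08 to 0.16), Cry1 0.04 (-0.01 to 0.10) and Cry2 0.01 (-0.07 to 0.08). The in-phase swing of Per1 was 0.93 (0.81 to 1.04) and that of Dbp 0.31 (0.20 to 0.42). The activator genes Clock and Arntl had -0.03 (-0.15 to 0.10) and -0.12 (-0.28 to 0.05). Nr1d2, the repressor of Arntl, had -0.10 (-0.21 to 0.01), and Tef, the PAR bZIP relative of Dbp, had -0.04 (-0.12 to 0.04). The upper ends of all 8 intervals lay under the lower ends for Per1 and Dbp. The intervals were widest for Per2 and Arntl, the genes with the fewest reads.

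**Figure D3:**
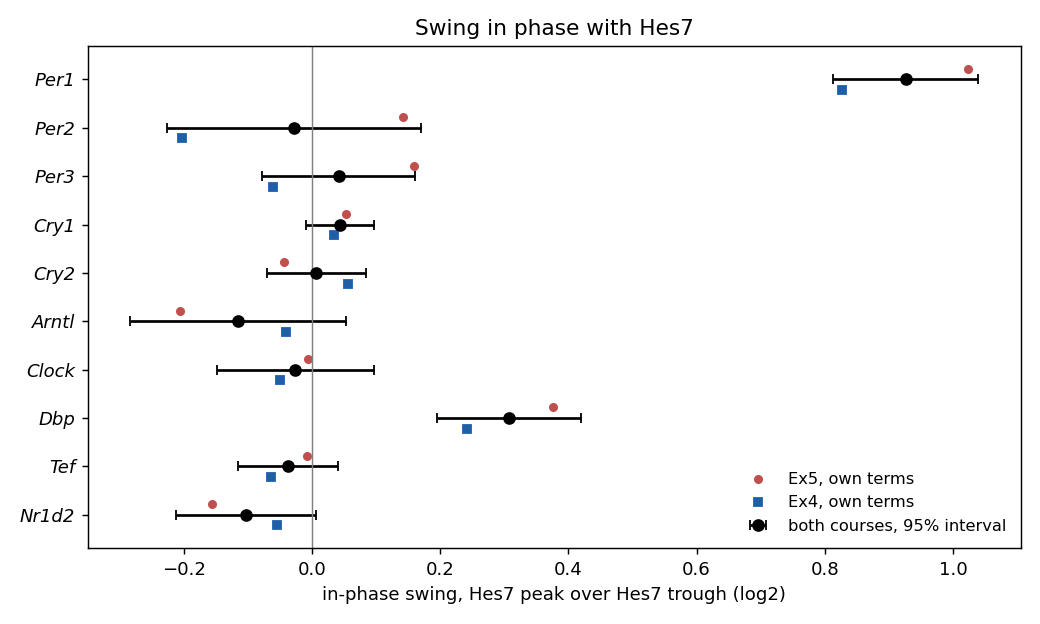
In-phase swing of each clock gene, the log2 difference between Hes7 peak and Hes7 trough (x axis), as a black point with its 95% interval for both courses together, and as red circles for Ex5 and blue squares for Ex4, fitted with separate terms for each course. Per1 at 0.93 and Dbp at 0.31 stand clear of 0, and the other 8 intervals include it.

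Per1 was set against each other gene directly, by testing with limma whether the difference of log2 CPM, Per1 minus the gene, carried the cycle. The in-phase swing of Per1 exceeded that of Per2 by 0.95 (95% interval 0.74 to 1.16, adjusted p = 6.56e-14) and that of Per3 by 0.88 (0.72 to 1.05, adjusted p = 6.99e-18). It exceeded that of Cry1 by 0.88 (0.74 to 1.03) and that of Cry2 by 0.92 (0.77 to 1.07). The least difference was to Dbp, at 0.62 (0.45 to 0.79, adjusted p = 6.59e-11), and the largest to Arntl, at 1.05 (0.85 to 1.24). All 9 clock genes were called different from Per1, but so were 100% of the 11771 other genes. Genes with a swing near that of Per1 were among them, such as Dusp4 (1.76-fold, against 1.93-fold for Per1). A call or its adjusted p therefore singles out none of the 9, and only the sizes of the differences are read here. With the period held at 180 min, 8 of the 9 and 11319 of all genes were called, and the difference to Per2 was not (adjusted p = 0.0761). As a plain ratio of CPM, Per1 over Per2 ran from 6.73 to 25.5 in Ex5 and from 8.41 to 20.7 in Ex4, and Per1 over Per3 from 3.41 to 8.41 in Ex5 and from 2.47 to 5.87 in Ex4.

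The genes whose course was most like that of Per1 were Lfng, Dusp4, Gse1, Hes7 and the luciferase reporter, and its paralogs ranked far behind. Likeness was Pearson's r over the 32 libraries of log2 CPM with the level and slope of each course removed, and libraries of 1 course share their handling, so r is a description. It was 0.973 for Lfng, a glycosyltransferase that modifies Notch, 0.947 for Dusp4, a phosphatase of MAP kinases, 0.934 for Gse1, 0.932 for Hes7 and 0.921 for the reporter. Among the 11771 other genes, Dbp ranked 38 at 0.765, Cry1 1295 at 0.343, Per2 3135 at 0.187 and Per3 4629 at 0.0906. The swing of Lfng was 3.15-fold and that of Dusp4 1.76-fold, so Per1 lay between them. For Dbp the highest were Gse1 (0.834), Ajuba (0.792), Cxxc5 (0.787), the luciferase reporter (0.781) and Erf, a repressor of the ETS family (0.772), with Per1 ranked 7 at 0.765 and Hes7 ranked 8 at 0.765.

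Because Per1 neighbours Hes7, the other genes less than 100 kb from Hes7 were examined for the same rhythm. Besides Per1, 10 such genes were in the table and 7 passed the filter, of which 2 were called rhythmic, beside 1.32% of all genes. Borcs6, which encodes a subunit of the lysosome-positioning complex BORC, lies 58825 bp upstream of Hes7 on the same strand. Its swing was 1.29-fold (log2 0.37 ± 0.05 SE, adjusted p = 9.84e-05 by edgeR's quasi-likelihood test), with a lag of -5.43 ± 3.35 min. The call was lost in Ex5 alone (adjusted p = 0.184) and with the period held at 180 min (0.251). The annotated 9130213A22Rik overlaps Hes7 on the opposite strand, had a mean of 1.22 CPM and swung 1.83-fold (adjusted p = 0.0199 by edgeR's quasi-likelihood test). No source used here gives the strand setting of the read counting, so its reads and those of Hes7 cannot be told apart. Its call was lost in Ex4 alone (adjusted p = 0.491), with the period held at 180 min (0.359) or 150 min (0.0771), after thinning of every library to the smallest total (0.0700), and when Ex5 at 210 or 225 min or Ex4 at 155 min was left out (up to 0.0576).

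The nearest genes on either side of Per1 and Hes7 did not pass the rhythm test. Vamp2, a vesicle fusion protein gene whose end is 28019 bp upstream of Hes7 and which is the next gene upstream of Per1, had a log2 swing of 0.19 ± 0.06 (adjusted p = 0.207 by edgeR's quasi-likelihood test; 0.0427 without Ex4 at 327 min). Aloxe3, which begins 1840 bp downstream of Hes7, had 1.12-fold (adjusted p = 0.842) at a mean of only 1.36 CPM. Tmem107, Aurkb and Ctc1, all farther upstream, had swings of 1.09-fold, 1.06-fold and 1.02-fold and adjusted p of 0.455, 0.349 and 0.909. Whether the place of Per1 beside Hes7 bears on its rhythm was not tested.

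**Figure D4:**
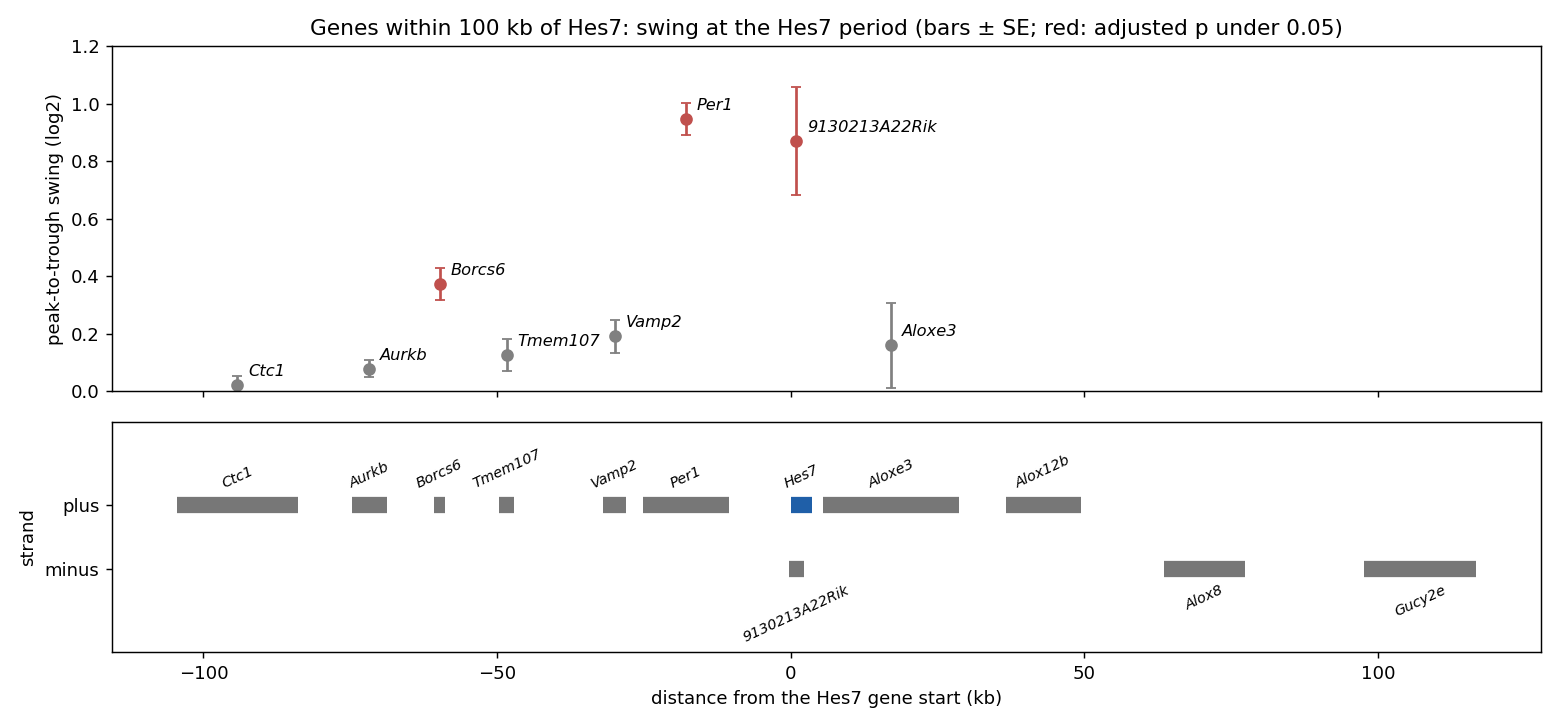
Upper panel, peak-to-trough swing at the Hes7 period (log2, ± SE) of each tested gene within 100 kb of Hes7, red where the adjusted p was under 0.05; lower panel, gene bodies by strand against distance from the Hes7 gene start (kb), Hes7 in blue. Per1 at 0.95 and the overlapping 9130213A22Rik at 0.87 are highest, Borcs6 stands at 0.37, and Vamp2 between Borcs6 and Per1 at 0.19.

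Further genes of the circadian system were examined in the same way. Of 23 further clock genes in the table, 17 passed the filter and 0 were called rhythmic by edgeR's quasi-likelihood test, though 2 had an unadjusted p under 0.05, and 0 were called by DESeq2 or by limma-voom. With 1.32% of all genes called, a count of 0 of 17 is near the share over all genes and is not a result about these genes. Their median swing was 0.04 (log2), against 0.07 over all genes. Ciart, a repressor of CLOCK and ARNTL, swung 1.27-fold with a lag of 5.69 ± 6.68 min (adjusted p = 0.172; 0.0108 without Ex5 at 425 min). Nr1d1, the paralog of Nr1d2, swung 1.17-fold (adjusted p = 0.319). Npas2, Arntl2, Rorb, Hlf, Bhlhe41 and Fbxl21 did not pass the filter.

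A list was also taken of 25 genes that respond, as Per1 does, to growth factor, cAMP or stress signals. Of these, 19 passed the filter and 6 were called rhythmic, Junb, Sgk1, Ier2, Egr1, Nr4a1 and Ddit4, beside 1.32% of all genes, and the median swing of the list was 0.16 (log2), against 0.07 over all genes. Junb, a subunit of AP-1, swung 1.70-fold with a lag of -9.73 ± 3.03 min (adjusted p = 2.12e-05 by edgeR's quasi-likelihood test). Ier2 swung 1.17-fold with a lag of -13.6 ± 3.49 min (adjusted p = 3.64e-04). Egr1, a zinc finger factor downstream of ERK, swung 1.47-fold with a lag of -29.4 ± 4.16 min (adjusted p = 0.0212, up to 0.0665 when either of the Ex5 libraries at 270 and 285 min was left out). Sgk1, a kinase gene induced by glucocorticoids, swung 1.27-fold with a lag of 55.5 ± 3.40 min (adjusted p = 2.52e-04), so that its peak came close to the Hes7 trough, where Per1 was low. With the period held at 180 min Junb, Ier2 and Sgk1 were not called (adjusted p = 0.0992, 0.293 and 0.692), nor was Egr1 at 120 min (0.178) or Sgk1 with no slope in the fit (0.404). In Ex5 alone Ier2 and Egr1 were not (adjusted p = 0.237 and 0.551), nor was Sgk1 in Ex4 alone (adjusted p = 0.145).

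Apart from the rhythm, several of the 10 genes drifted over the sampled hours. The slope averaged over both courses passed edgeR's quasi-likelihood test for 7 of 10, of which 4 rose and 3 fell, where 26.8% of all genes rose and 26.6% fell. The median slope was 0.0070 log2 per 100 min over the 10 genes, against -0.0016 over all genes. Dbp rose by 0.24 ± 0.03 (SE) log2 CPM per 100 min (adjusted p = 3.64e-09), by 0.25 ± 0.04 in Ex5 and 0.22 ± 0.04 in Ex4. Per1 rose by 0.15 ± 0.03 (adjusted p = 1.33e-05), by 0.17 ± 0.04 in Ex5 and 0.13 ± 0.04 in Ex4. With the rhythm terms left out of the fit the Per1 slope was 0.13 (adjusted p = 0.122). Cry2 rose by 0.06 ± 0.02 (adjusted p = 0.00450) and Cry1 by 0.05 ± 0.01 (adjusted p = 0.00274).

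Arntl, the partner of Clock, showed the steepest fall, by 0.20 ± 0.04 log2 CPM per 100 min (adjusted p = 8.25e-05 by edgeR's quasi-likelihood test), with slopes of -0.29 ± 0.06 in Ex5 and -0.12 ± 0.05 in Ex4. Its level was 4.39 CPM at the lowest, 6.07 at the median and 10.2 at the highest in Ex5, and 6.73, 7.99 and 9.21 CPM in Ex4. Per2 fell by 0.14 ± 0.05 (adjusted p = 0.0146), with slopes of -0.26 ± 0.06 in Ex5 and -0.02 ± 0.07 in Ex4. In Ex5 Per2 stood at 7.74 CPM at 165 min, was lowest at 3.56 CPM at 285 min and had 4.71 CPM at 425 min, while in Ex4 all 16 libraries lay between 3.72 and 5.04 CPM. Without the library of Ex5 at 165 min the Per2 slope was -0.11 and no longer passed (adjusted p = 0.0624). Nr1d2 fell by 0.09 ± 0.03 (adjusted p = 0.00462), and Clock, Tef and Per3 did not pass (adjusted p = 0.754, 0.246 and 0.325; Tef 0.0293 without Ex5 at 165 min). In Ex4 alone the slopes of Per2, Cry1 and Nr1d2 did not pass (adjusted p = 0.899, 0.435 and 0.486), and in Ex5 alone that of Cry2 did not (adjusted p = 0.264), nor after thinning to the smallest library (0.0523). The summed epiblast markers moved over the same hours, with 305 CPM in the first and 233 CPM in the last library of Ex5, and 378 CPM in the first and 287 CPM in the last library of Ex4, and their part in these slopes was not tested.

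Of the 17 further clock genes tested, 4 rose and 3 fell over the sampled hours, beside 26.8% and 26.6% of all genes, so the list did not drift more often than all genes. Rora, an activator of Arntl, rose by 0.34 ± 0.08 log2 CPM per 100 min (adjusted p = 3.77e-04 by edgeR's quasi-likelihood test). Ciart rose by 0.21 ± 0.05 and Nfil3, a repressor at D-boxes, by 0.18 ± 0.03, but Ciart did not pass in Ex5 alone (adjusted p = 0.234) nor Nfil3 in Ex4 alone (adjusted p = 0.0568). In level, 8 of the 17 were higher and 1 lower in Ex5 than in Ex4, beside 27.4% and 27.7% of all genes.

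**Figure D5:**
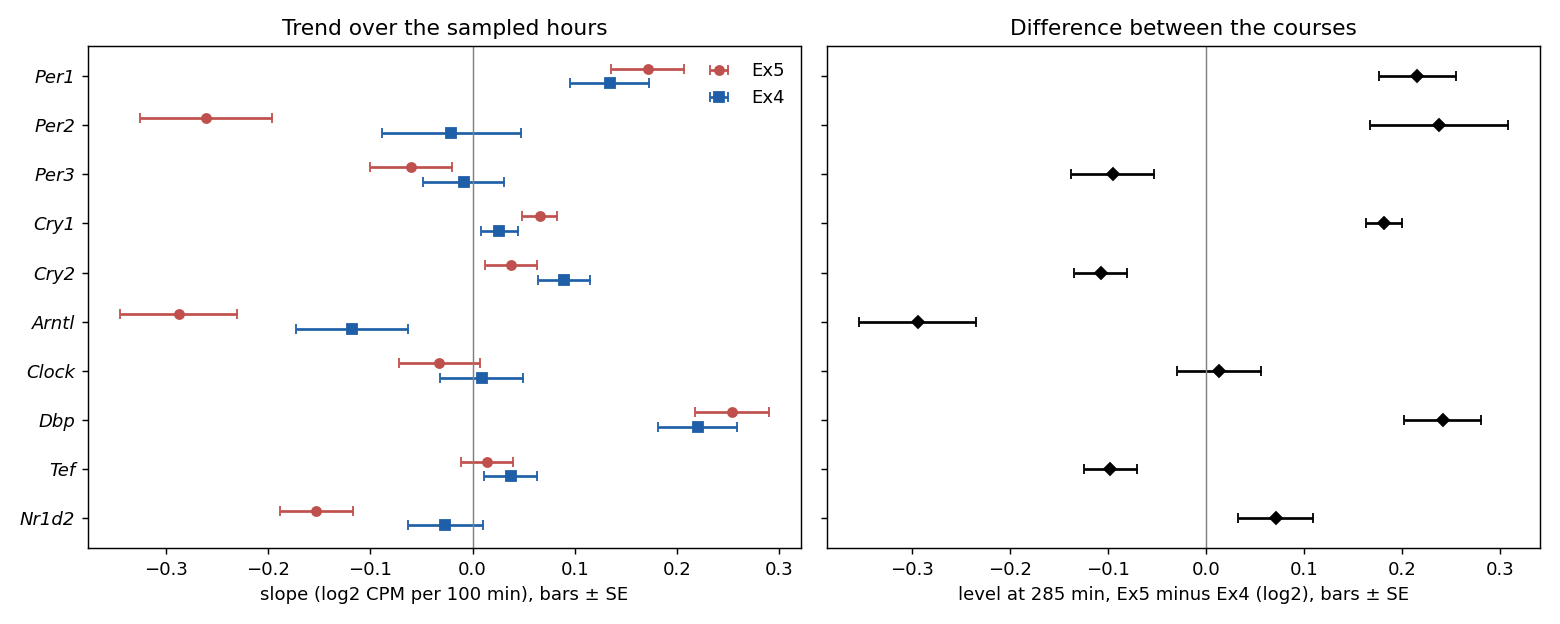
Left, slope of each clock gene (log2 CPM per 100 min, ± SE) in Ex5 (red circles) and Ex4 (blue squares); right, level difference at 285 min, Ex5 minus Ex4 (log2, ± SE, black diamonds). Dbp and Per1 have slopes above 0 and Arntl below 0 in both courses, and level differences run from -0.29 for Arntl to 0.24 for Dbp.

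The courses also differed in level for most of the genes, as they did for most of the transcriptome. At 285 min, the centre of the time axis, 4 of 10 were higher and 3 lower in Ex5 than in Ex4, where 27.4% of all genes were higher and 27.7% lower by edgeR's quasi-likelihood test. The difference, Ex5 minus Ex4, was 0.24 ± 0.04 (log2, SE) for Dbp (adjusted p = 2.30e-06), 0.24 ± 0.07 for Per2 (adjusted p = 0.00446), 0.22 ± 0.04 for Per1 (adjusted p = 1.54e-05) and 0.18 ± 0.02 for Cry1 (adjusted p = 9.22e-11). It was -0.29 ± 0.06 for Arntl (adjusted p = 6.82e-05), -0.11 ± 0.03 for Cry2 (adjusted p = 8.94e-04) and -0.10 ± 0.03 for Tef (adjusted p = 0.00254). Per3 had -0.10 ± 0.04 (adjusted p = 0.0529), which just missed the threshold. It passed with the period held at 150 or 180 min (0.0472 and 0.0319), narrowly by DESeq2, and when any of 11 libraries was left out (down to 0.0119). The other 2 did not pass, Nr1d2 with 0.07 ± 0.04 (adjusted p = 0.117; down to 0.0394 without Ex4 at 245 or 405 min) and Clock with 0.01 ± 0.04 (adjusted p = 0.819). Cry1, at 49.8 to 58.7 CPM in Ex5 and 44.8 to 52.0 CPM in Ex4, and Cry2, at 31.0 to 36.2 CPM in Ex5 and 30.0 to 39.7 CPM in Ex4, overlapped between the courses. With a curved time course in the fit, the difference was 0.12 for both Per1 and Per2 and no longer passed (adjusted p = 0.0593 and 0.282), and with the period held at 180 min that of Per1 did not pass either (adjusted p = 0.0616). The PSM and epiblast marker sums given above differed between the courses as well, and their part in these differences was not tested.

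Whether the drift and the rhythm of the 10 genes differed between the courses was tested next. The slope difference passed for 0 of 10 by edgeR's quasi-likelihood test, where it passed for 16.1% of all genes, with 3 of the 10 at an unadjusted p under 0.05, and was called for 0 of 10 by DESeq2 and by limma-voom too. The 3 were Per2 at -0.24 ± 0.09 (log2 per 100 min, Ex5 minus Ex4, adjusted p = 0.0641), Nr1d2 at -0.13 ± 0.05 (adjusted p = 0.0760) and Arntl at -0.17 ± 0.08 (adjusted p = 0.126). All 3 passed with a curved time course in the fit (adjusted p = 0.00404, 0.0276 and 0.00705), and Per2 with the period held at 180 min (0.0474). They also passed without some single libraries, Per2 without Ex5 at 270, 405 or 425 min or Ex4 at 155 min (down to 0.0291), Nr1d2 without Ex4 at 245 min (0.0498) and Arntl without Ex5 at 405 min (0.00748). A slope difference for these genes therefore depended on the form of the time course and on single libraries. The rhythm difference passed for 0 of 10 and for 0% of all genes by edgeR's quasi-likelihood test, and DESeq2 and limma-voom also called 0 of 11772, while 644 genes had an unadjusted p under 0.05. Dbp (p = 0.0110) and Per3 (p = 0.0235) were the 2 clock genes among those. The in-phase swing of Per3 was 0.16 ± 0.08 (SE) in Ex5 and -0.06 ± 0.08 in Ex4.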

How the data were processed

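RNA was measured in 32 libraries, 16 of Ex5 and 16 of Ex4. The deposited table holds raw counts of reads per gene symbol, made per the submitters' processing notes with bcl2fastq 2.17.1.14, cutadapt 1.14, HISAT2 2.1.0, HTSeq 0.6.1 and build mm10. The libraries came from a strand-specific mRNA kit per the labels' protocols, but no source used here gives the annotation or the strand setting of the counting. Columns were mapped to samples by their descriptions, and 0 columns were left unused.

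CPM were scaled by TMM factors (edgeR 4.0.16 in R 4.3.3). The filter left 11772 genes (1 CPM or more in 16 or more libraries). For these, edgeR's quasi-likelihood model held a level and a slope for each course (time centred on 285 min) plus cosine and sine terms of the Hes7 phase common to both, with Benjamini-Hochberg adjustment at 0.05. The Hes7 period between 90 and 240 min that gave the least squares on log2 CPM (prior count 0.5) was taken, to the nearest 1 min. Per1 was set against the other genes with limma 3.58.1. Fold changes are fitted, and the p-values measure spread around the fitted curves, which may be technical. Lags have standard errors without the error of the period or of the fitted Hes7 peak times. Gene positions are from GENCODE M21, promoters from RefSeq (GRCm38.p6). The fits were tested on simulated data. Alternatives included DESeq2 1.42.0, limma-voom, other filters, time terms and periods, each course alone and each library left out. All 10 genes, the other clock genes and the neighbours that passed the filter were named, with the 4 responsive genes of smallest p and the 5 genes most alike. The genes and lists were chosen with earlier results of these data known. Thinning of counts to the smallest library was added after the data were seen.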

Additional observations from a re-analysis of the deposited data

Results flagged for a closer look

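The slope over the sampled hours differed between the courses, by edgeR's test of the difference, for 4 genes named beside the 10 clock genes. Csnk1e, a kinase that phosphorylates PER proteins, had a slope difference, Ex5 minus Ex4, of -0.0799 ± 0.02 (SE) log2 CPM per 100 min (adjusted p = 0.0169). Tipin, the partner of the replication protein Timeless, had 0.104 ± 0.03 (adjusted p = 0.00453). Sgk1 had -0.408 ± 0.05 (adjusted p = 3.31e-07). Tmem107, upstream of Hes7, had 0.143 ± 0.05 (adjusted p = 0.0458), which was lost when any of 16 libraries was left out. Such a slope difference passed for 16.1% of all genes.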

How the results depend on the processing

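Per1 stayed rhythmic under all 13 alternatives run for it and without any single library, with swings of 0.68 to 1.05 (log2). Of all genes, 155 were called rhythmic, against 62 with no slope in the fit, 52 in Ex5 alone and 40 in Ex4 alone; without 1 library in turn the count was 124 to 229. The 2 clock genes called became 1 with no slope, with a period of 180 min and in Ex4 alone (Dbp was lost each time), and stayed 2 without any single library. For the trend, Ex4 alone called 3747 genes, against 6280 in both courses, and 4 clock genes, against 7. A quadratic time course called 3081 genes for the slope difference, against 1894, and 3 clock genes (Per2, Arntl and Nr1d2), against 0; a period of 180 min called 1 (Per2), and leaving out 1 library called 0 to 2. For the rhythm difference, no filter called 2 genes and a period of 180 min 3, against 0. The level difference without 1 library called 6328 to 6564 genes and 7 to 9 clock genes. The causes were not tested. No called trend, level difference or slope difference changed sign. The rhythm results and those of Per1 against other genes were followed as swings, which are never negative, so they could not change sign. Of the results on single clock genes, 655 kept their side of the threshold, 13 lost it and 7 gained it, libraries left out not counted. The time point numbers were not taken to pair the libraries, since not every pair correlated over 0.1: correlations of deviations from the course means were 0.0473 to 0.545 over 16 pairs, 14 over 0.1, and 3 libraries matched their own number best. After removal of the fitted curves they were -0.159 to 0.145. With the replicate block of time point numbers, 6052 genes, against 6485, and 7 clock genes differed in level. Thinning to the smallest library lost 1 call among the clock genes (the Cry2 trend). Per2 did not pass a filter of 5 CPM, so that setting gave it no value.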
